A study of Mus musculus with 12 samples.

Results

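Acute-phase proteins are secreted proteins whose synthesis rises during inflammation, and neutrophils are granulocytes that carry several of them in their granules. The 10 genes described here, Lrg1, Saa3, Hp, Lbp, Lcn2, S100a8, S100a9, Ngp, Cd177 and Csf3r, were followed through B16-F10 melanomas of obese and nonobese mice given anti–PD-1 or isotype antibody. They were chosen with earlier results of these data known: Lrg1 and Cd177 differed by diet in opposite directions with isotype and with anti–PD-1, and the others belong to the same classes. All 10 are among the 23420 genes counted and have at least 1 count, and 7 of them passed the filter on low counts that left 13095 genes for testing. S100a8, S100a9 and Ngp did not pass it. Cd177 had at most 3 counts in 8 of the 12 tumors, so its fold changes rest on few reads.

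B16-F10 is a melanoma line derived from C57BL/6 mice. Cells were implanted under the skin of male C57BL/6J mice that were 4–5 weeks old when feeding began and had been fed for 15 weeks. Obese mice received a Western diet with 0.2% cholesterol, up to a weight gain of 50%, and nonobese mice a matched control diet. Once tumors could be felt, both received 10 mg/kg of anti–PD-1 (clone 29F.1A12), an antibody that blocks an inhibitory receptor of T cells, or of the isotype control antibody (clone 2A3), and tumors were collected on day 16. The sample labels name no engineered allele, and every tumor grew from the same transplanted line, so all groups rest on 1 tumor model.

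The 12 tumors came from nonobese and obese mice, 3 isotype-treated and 3 anti–PD-1–treated in each diet, which makes 4 groups of 3. RNA of an unsorted piece of each tumor was sequenced, so a gene read in fewer cells and a gene read less in each cell cannot be told apart. Totals on genes ran from 14022929 to 33871843 counts, and 1 count was worth between 0.0294 and 0.0705 CPM (a gene's count per 1e6 counts of its TMM-scaled library). A total of 3 counts was taken as the floor of detection, which covers counting error only because the reads had no molecular identifiers. Values are CPM unless counts are named, and tumors are given in the order of replicates 1, 2 and 3. Upregulated or downregulated, and rose or fell, are used of genes that changed more than 2-fold at an unadjusted P under 0.05 by edgeR, the thresholds of the study. The Benjamini-Hochberg FDR over all genes tested stands beside them, and most of these genes did not reach an FDR of 0.05. Values in brackets after a log2 fold change are standard errors.

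The liver makes most acute-phase proteins, driven largely by interleukin-6 through STAT3 and C/EBP factors and by interleukin-1 through NF-κB. Adipocytes, fibroblasts, macrophages and neutrophils make some of them too. Csf3r binds the growth factor that drives neutrophil production, Cd177 sits on the neutrophil surface, and S100a8, S100a9, Lcn2 and Ngp are abundant in neutrophils or their precursors.

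Promoter windows of Lrg1 and Cd177, which lead the diet pattern, and of Saa3, which did not follow it, are shown because the levels of the first pair moved together. Sequences come from RefSeq on GRCm38.p6. They run 5′ to 3′ on the gene's strand, from 250 bases before the start, and end where an exon of the gene in GENCODE M21 begins. The RefSeq spans of Cd177 and Saa3 given with each gene reach upstream of the starts used here, so the end of the Cd177 window and the whole Saa3 window lie inside them. The windows lie at chr17:56122002-56122196 (minus strand) for Lrg1, at chr7:24760312-24760561 (minus strand) for Cd177 and at chr7:46715701-46715926 (minus strand) for Saa3. Capitals mark matches to TTGCNNAA, the core read by C/EBP factors, on either strand.
Lrg1: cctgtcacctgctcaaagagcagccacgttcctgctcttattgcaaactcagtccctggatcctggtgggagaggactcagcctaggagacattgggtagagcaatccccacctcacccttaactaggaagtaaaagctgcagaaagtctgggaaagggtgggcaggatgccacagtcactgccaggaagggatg
Cd177: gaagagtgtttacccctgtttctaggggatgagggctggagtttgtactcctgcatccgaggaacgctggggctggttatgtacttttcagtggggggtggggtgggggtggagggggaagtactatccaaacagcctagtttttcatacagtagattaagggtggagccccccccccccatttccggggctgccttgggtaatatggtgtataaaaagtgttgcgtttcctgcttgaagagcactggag
Saa3: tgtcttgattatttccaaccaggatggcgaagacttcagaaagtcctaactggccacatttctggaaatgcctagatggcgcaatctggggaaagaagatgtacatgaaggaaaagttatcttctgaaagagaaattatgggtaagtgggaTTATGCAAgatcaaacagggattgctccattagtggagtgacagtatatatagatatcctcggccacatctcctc
Saa3 held 1 match (TTATGCAA on the printed strand), beginning 99 bases before the start, and Lrg1 and Cd177 held none. Of the 10 genes, 8 had a window, and 4 of these held the C/EBP letters within the 250 bases: Saa3, Lcn2, S100a9 and Ngp. Among 32851 mouse promoter windows of that length, 9.564% held them. The NF-κB letters, GGGA and TTCC with any 2 bases between them, were found on either strand in 1 of the 8 (Csf3r) and in 1.208% of all windows, and the STAT letters TTCNNNGAA in none of the 8 and in 7.02% of all. A match describes letters, and these data do not measure binding. Hp and Lbp had no entry.

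The levels of the 10 genes, set per length of their exons to allow a comparison between genes, spanned a wide range. Hp was the highest, at 15.3 ± 15.2 CPM per kilobase over the 12 tumors (mean ± SD, n = 12). Lrg1 followed at 2.69 ± 2.32 and Saa3 at 1.27 ± 0.566. Csf3r, Lcn2, Lbp, S100a9 and S100a8 lay between 0.276 and 0.470, and Cd177 at 0.0875 ± 0.0828. Ngp, a neutrophil granule protein, had 1 count in all 12 tumors together.

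**Figure D1:**
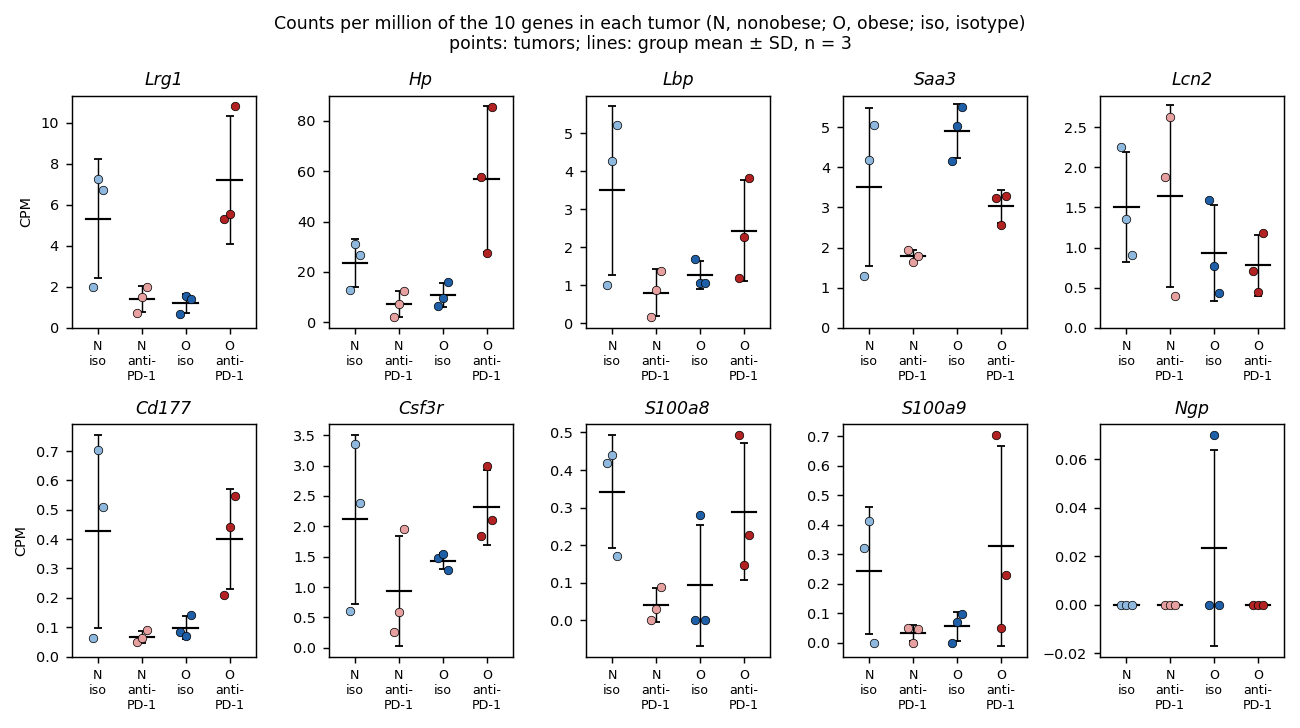
CPM (vertical axes, linear, each panel on its own scale) of the 10 genes in each of the 12 tumors, grouped by diet and antibody, with group means and SD (n = 3). Group means of Lrg1, Hp and Cd177 are high in nonobese isotype and obese anti–PD-1 tumors and low in the other 2 groups. Nonobese isotype replicate 1 lies within the range of the low groups for each of these genes. Mean Saa3 is lower with anti–PD-1 in both diets, and its nonobese groups overlap.

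Lrg1 encodes leucine-rich alpha-2-glycoprotein, a secreted acute-phase protein that modifies TGF-β signaling in blood vessels. The gene lies on chromosome 17, 56119678 to 56121946, minus strand (GRCm38.p6, protein coding, as are all 10). It measured 1.99, 7.26 and 6.70 CPM in nonobese isotype tumors and 0.711, 1.48 and 2.01 in nonobese anti–PD-1 tumors. In obese mice it measured 0.673, 1.54 and 1.38 with isotype, against 5.29, 5.56 and 10.8 after anti–PD-1. All 3 obese anti–PD-1 tumors therefore lay above all 6 of the obese isotype and nonobese anti–PD-1 tumors, and nonobese isotype replicate 1 fell level with the highest of the nonobese anti–PD-1 tumors.

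The order of Lrg1 group means was obese anti–PD-1 (7.22 ± 3.11), nonobese isotype (5.32 ± 2.89), nonobese anti–PD-1 (1.40 ± 0.651) and obese isotype (1.2 ± 0.462; SD, n = 3 each). The 2 high groups overlapped each other, and so did the 2 low groups. Obese tumors were lower than nonobese tumors with isotype, by 2.16 on the log2 scale (a log2 fold change of -2.16, standard error 0.53), and higher with anti–PD-1, by 2.36 (0.52). Neither pair of groups overlapped. These values are the ones that chose the gene and carry no test. Of the 7 tested members, Lrg1 alone was lower in every obese isotype tumor and higher in every obese anti–PD-1 tumor, a pattern that 0.557% of all genes tested shared. The same levels read by antibody gave log2 fold changes with anti–PD-1 of -1.91 (0.51) in nonobese and 2.61 (0.53) in obese mice. Averaged over both diets, a contrast the choice of genes did not fix, Lrg1 had a log2 fold change of 0.35 (0.36, FDR of 1 by edgeR). It did not pass.

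Hp encodes haptoglobin, which binds free hemoglobin (chromosome 8, 109575128 to 109579172, minus strand). It measured 12.7, 30.9 and 26.6 CPM in nonobese isotype tumors and 2.03, 7.33 and 12.3 in nonobese anti–PD-1 tumors. In obese mice the values were 6.52, 9.79 and 16.2 under isotype, against 57.8, 27.7 and 85.4 under anti–PD-1. Every nonobese anti–PD-1 tumor was below every nonobese isotype tumor, by a narrow margin, and every obese anti–PD-1 tumor was above every obese isotype tumor.

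With anti–PD-1 the mean of Hp was 0.309 times that with isotype in nonobese mice, 7.24 ± 5.16 against 23.4 ± 9.53 CPM, and 5.26 times that with isotype in obese mice, 56.9 ± 28.9 against 10.8 ± 4.91 CPM (SD, n = 3). The log2 fold changes were -1.68 (0.55, FDR 0.833 by edgeR) and 2.40 (0.55, FDR 0.206 by edgeR). Neither passed an FDR of 0.05 in edgeR, and DESeq2 gave the obese response an FDR of 0.0484. Between diets Hp differed by 2.97 (0.56) with anti–PD-1 and by -1.11 (0.54) with isotype, where the groups overlapped (a description).

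Lbp encodes the protein that carries bacterial lipopolysaccharide to CD14 and TLR4 (chromosome 2, 158306493 to 158332852, plus strand). It measured 0.995, 4.26 and 5.22 CPM in nonobese isotype and 0.152, 0.866 and 1.38 in nonobese anti–PD-1 tumors. The obese values were 1.68, 1.05 and 1.05 with isotype, against 1.2, 2.26 and 3.83 after anti–PD-1. The first nonobese isotype tumor fell inside the range of the treated group, and the obese groups overlapped as well.

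Anti–PD-1 gave Lbp a log2 fold change of -2.09 in nonobese mice (0.68, FDR 0.833 by edgeR). In obese mice it was 0.95 (0.67, FDR 0.781 by edgeR), which did not pass. Obese tumors differed from nonobese tumors by -1.44 (0.67) with isotype and by 1.59 (0.68) with anti–PD-1, values the choice of genes touches.

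Saa3, a serum amyloid A made outside the liver by macrophages and adipocytes among others, lies on chromosome 7, 46711998 to 46719615 (minus strand). Its values were 1.28, 4.17 and 5.05 CPM in nonobese isotype and 1.93, 1.64 and 1.78 in nonobese anti–PD-1 tumors. Obese isotype tumors measured 4.16, 5.03 and 5.49 and obese anti–PD-1 tumors 3.24, 2.56 and 3.28. The obese groups did not overlap, and in nonobese mice replicate 1 with isotype was the lowest of the 12.

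Unlike Lrg1 and Hp, Saa3 had negative log2 fold changes with anti–PD-1 in both diets, of -0.96 in nonobese (0.39, FDR 0.895 by edgeR) and -0.69 in obese mice (0.39, FDR 0.705 by edgeR). Averaged over diets the fold change was -0.83 (0.27, FDR of 1 by edgeR). The fold was under 2, so the gene did not pass, and without nonobese isotype replicate 1 the averaged value was -1.03 and passed. Near copies of Saa3 could share reads with it. Saa1 had no count in any tumor and Saa2 had 1 in all.

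Lcn2 encodes lipocalin-2, which withholds iron carriers from bacteria (chromosome 2, 32384637 to 32387739, minus strand). It measured 2.25, 1.35 and 0.908 CPM in nonobese isotype and 1.88, 2.63 and 0.401 in nonobese anti–PD-1 tumors. In obese mice it was at 1.60, 0.769 and 0.430 under isotype, against 0.705, 0.443 and 1.19 under anti–PD-1. The 4 groups overlapped throughout. The log2 fold change with anti–PD-1 was 0.12 (0.62, FDR 0.983 by edgeR) in nonobese and -0.27 (0.68, FDR 0.949 by edgeR) in obese mice.

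Cd177, the neutrophil surface protein that binds PECAM1, lies on chromosome 7, 24743983 to 24760334, minus strand. Its counts were 2, 24 and 9 in nonobese isotype and 1, 2 and 2 in nonobese anti–PD-1 tumors. In obese isotype tumors there were 2, 1 and 3, and in obese anti–PD-1 tumors 3, 9 and 12. More than 3 counts were reached in 4 tumors only, nonobese isotype replicates 2 and 3 and obese anti–PD-1 replicates 2 and 3. In CPM, the group means were 0.427 ± 0.329, 0.0673 ± 0.0197, 0.0991 ± 0.0389 and 0.400 ± 0.172 in the same order. The log2 fold change by diet was -2.01 (0.82) with isotype, where the groups overlapped, and 2.52 (0.86) with anti–PD-1, where they did not. Both chose the gene and carry no test. Averaged over diets, the log2 fold change of Cd177 with anti–PD-1 was -0.30 (0.61, FDR of 1 by edgeR), which did not pass.

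Csf3r, the receptor of granulocyte colony-stimulating factor (chromosome 4, 126023441 to 126044975, plus strand), measured 0.610, 3.35 and 2.38 CPM in nonobese isotype and 0.254, 0.587 and 1.96 in nonobese anti–PD-1 tumors. Obese isotype tumors lay close together at 1.47, 1.54 and 1.29, below the obese anti–PD-1 tumors at 1.83, 3.0 and 2.10. The log2 fold change with anti–PD-1 was -1.17 in nonobese (0.64, FDR 0.929 by edgeR) and 0.69 in obese mice (0.64, FDR 0.843 by edgeR), and neither passed.

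S100a8 and S100a9, which form calprotectin and lie side by side on chromosome 3, were near the floor. S100a8 had 13, 15 and 3 counts in nonobese isotype tumors, and 0, 1 and 2 in nonobese anti–PD-1 tumors. In obese mice it had 0, 4 and 0, and 7, 3 and 5. S100a9 had 10, 14 and 0 counts, then 1, 0 and 1, then 0, 1 and 2, and finally 10, 1 and 5 in the same groups. Their summed counts were highest in nonobese isotype and obese anti–PD-1 tumors, the groups in which Lrg1 was high.

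Pooled over tumors, S100a8 with anti–PD-1 was at 0.108 of its isotype level in nonobese mice (95% exact interval 0.0211 to 0.345) and at 3.92 times it in obese mice (1.25 to 16.2). For S100a9 the ratios were 0.0927 (0.0106 to 0.373) and 5.58 (1.60 to 29.9). These intervals cover counting error and not the spread between tumors. In a model of every gene with at least 1 count, both passed the fold and P thresholds in nonobese mice, at log2 fold changes of -2.94 (1.14) and -2.96 (1.31), and neither did in obese mice. In that model the FDR of S100a8 was 0.873 in nonobese and 0.840 in obese mice by edgeR, and that of S100a9 was 0.889 and 0.774. The share of all genes that passed in that model is not given, so nothing is read from these calls.

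**Figure D2:**
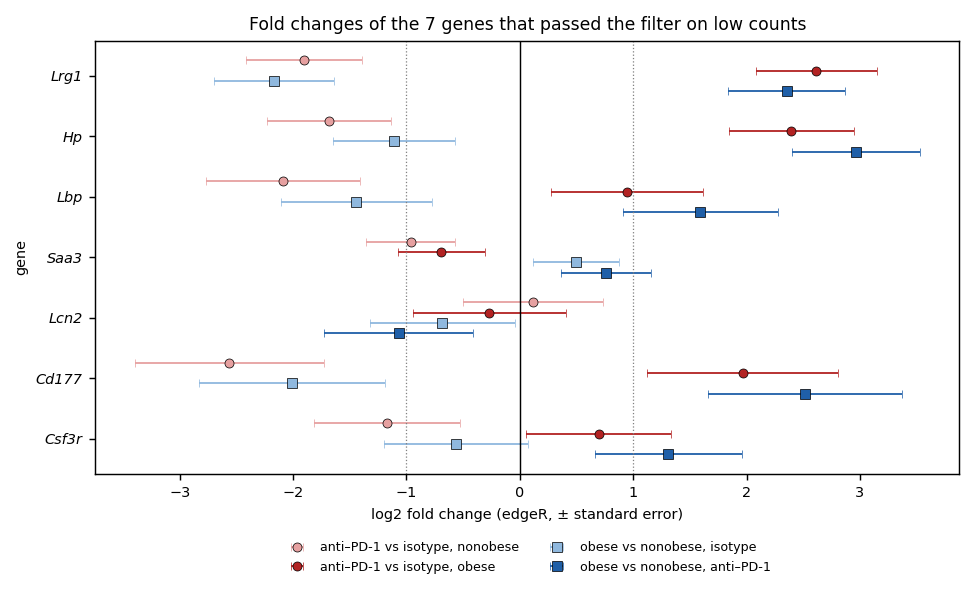
Log2 fold changes (horizontal axis, ± standard error, edgeR) of the 7 tested genes in the 4 pairwise comparisons; dotted lines mark a fold change of 2. For Lrg1, Hp, Lbp, Cd177 and Csf3r the values of nonobese mice and of isotype-treated mice lie left of 0 and the others right of it. Saa3 splits by comparison type, and Lcn2 lies near 0 for anti–PD-1 against isotype in either diet.

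At these thresholds, 4 of the 7 tested members were lower with anti–PD-1 in nonobese mice (Cd177, Hp, Lbp and Lrg1), where 2.42% of all genes passed in either direction and 2.31% were lower. In obese mice 3 were higher (Cd177, Hp and Lrg1), where 2.44% of genes passed and 2.24% were higher. The levels of Lrg1 and Cd177 in these groups chose both genes, so nothing is read from these counts against the shares of all genes. Of the other 5, Hp and Lbp passed in nonobese mice and Hp in obese mice. Cd177 did not pass in obese mice by DESeq2, or when obese isotype replicate 1 or 2 or obese anti–PD-1 replicate 2 or 3 was left out. In models of the 6 tumors of either diet alone, the filter on low counts removed Cd177, so it was not tested there. The median log2 fold change of the 7 was -1.68 in nonobese and 0.95 in obese mice, beside 0.02 and -0.01 over all genes tested. Without Lrg1 and Cd177, the median of the other 5 was -1.17 and 0.69. All of these genes were chosen with earlier results of these data known, so nothing is read from either set of medians. No member had an FDR below 0.05 in either comparison by edgeR, where 0 genes of all reached it. Of the 5 members other than Lrg1 and Cd177, 3 (Hp, Lbp and Saa3) and 1 (Hp) had an unadjusted P below 0.05 (5.23% and 7.57% of all genes), and DESeq2 gave 0 and 1 (Hp) an FDR below 0.05 (0.0687% and 0.802% of all genes). The counts of these 5 are likewise a description, and nothing is read from them against the shares of all genes. Averaged over diets, 0 of the 7 passed the fold and P thresholds, against 0.305% of all genes, 1 (Saa3) had an unadjusted P below 0.05, against 1.44% of all genes, and none had an FDR below 0.05 by edgeR or DESeq2.

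Between diets, 3 of the 7 were lower in obese mice with isotype (Cd177, Lbp and Lrg1; 1.37% of all genes passed and 1.12% were lower), and 4 were higher with anti–PD-1 (Cd177, Hp, Lbp and Lrg1; 4.25% passed and 3.69% were higher). By FDR below 0.05 in edgeR the second count was 1 (Hp), where 0.382% of all genes passed. Without overlap, Lrg1 alone was lower with isotype (9.02% of all genes) and Cd177, Hp, Lrg1 and Saa3 were higher with anti–PD-1 (6.54%). The difference between the responses passed for the same 4 genes, where 5.76% of all genes did. The genes were chosen with these contrasts known, so the counts are a description and nothing is read from them. With the replicate number as a block, Hp also passed with isotype, at -1.16 (0.40), and Lbp no longer did, at -1.05 (0.57). Under the block Csf3r also passed between diets with anti–PD-1, at a log2 fold change of 1.47 (0.59). By DESeq2 it passed there too and for the difference between responses, and with the current glmQLFit for the difference. The comparisons also share tumors, since each group enters 2 of the 4 pairwise comparisons. Cd177 did not pass with isotype by DESeq2. In models of the 6 tumors compared, the filter on low counts removed Cd177 with either antibody, so it was not tested there. With anti–PD-1 Lbp did not pass when nonobese anti–PD-1 replicate 1 or 2 or obese anti–PD-1 replicate 2 or 3 was left out, and the count rose to 6, with Csf3r and Lcn2, without nonobese anti–PD-1 replicate 3. With isotype the count fell to 1 (Lrg1) when nonobese isotype replicate 2 or 3, or obese isotype replicate 1 or 2, was left out.

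Groups did not overlap for 1 of the 7 in nonobese mice (Hp, lower with anti–PD-1), where 5.37% of all genes did so in that direction. In obese mice 4 of the 7 (Cd177, Csf3r, Hp and Lrg1) were higher without overlap, against 5.45% of all genes, and Saa3 was lower, against 7% of all genes. Lrg1 and Cd177 were chosen on the levels of these groups, so nothing is read from the count of 4. An exact permutation test of 3 tumors against 3 cannot give a two-sided P below 0.1 and was not used for single genes.

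Single tumors bore on several genes at once. Nonobese isotype replicate 1 had the lowest value of its group for Lrg1, Hp, Lbp, Saa3, Cd177 and Csf3r. Without it the members that fell with treatment in nonobese mice numbered 6, with Csf3r and Saa3 added. Without nonobese isotype replicate 2 they numbered 3, and Cd177 was no longer among them. Csf3r also passed without nonobese anti–PD-1 replicate 3, at -2.28, and its log2 fold change was -0.64 without nonobese isotype replicate 2. Saa3 also passed without nonobese anti–PD-1 replicate 1. Nonobese isotype replicate 1 had the lowest marker sums of its group for skeletal muscle (11.4 against 302.5 and 267 CPM), fibroblasts (441 against 1658 and 1892), monocytes (18.7 against 44.9 and 53.3), macrophages (166 against 365 and 306) and adipocytes (16.2 against 29.6 and 28.0), and their part in its low values was not tested. Over the 12 tumors, Lrg1 correlated with Hp at Pearson's r = 0.91, with Cd177 at 0.90, with Lbp at 0.78 and with Csf3r at 0.71, with Saa3 at 0.21 and with Lcn2 at -0.26 (log2 CPM, 12 tumors, a description). After group means were taken out, the values were 0.84, 0.78, 0.79, 0.75, 0.71 and -0.46. For S100a8 and S100a9, which were near the floor, r with Lrg1 was 0.69 and 0.48 before that step and 0.19 and -0.11 after it.

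Most other acute-phase genes, from a list of 24 drawn up with earlier results known, were at or near 0 counts. Of the 24, 20 had a count and 9 could be tested. The liver-made Crp and Apcs had none in any tumor, and Orm1 had at most 8 in a tumor. With anti–PD-1, 2 of the 9 were downregulated in nonobese mice (Serpina3n and Ptx3) and 1 was upregulated in obese mice (Serpina3g), where 2.31% of all genes were lower and 2.24% higher. The median log2 fold changes of the 9 were -0.31 and 0.43, beside 0.02 and -0.01 over all genes. This list and those that follow were drawn up with results known, so nothing is read from their counts against the shares of all genes.

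Serpina3n, an inhibitor of proteases, measured 12.6 ± 8.33 CPM in nonobese isotype and 3.23 ± 1.41 in nonobese anti–PD-1 tumors, with a log2 fold change of -1.95 (0.59, FDR 0.833 by edgeR). In obese mice it was at 4.94 ± 2.50 with isotype and 11 ± 5.24 with anti–PD-1, a change of 1.13 that did not pass (0.58, FDR 0.690 by edgeR). Serpina3g, a related inhibitor, rose with anti–PD-1 in obese mice from 1.64 ± 0.267 to 9.21 ± 5.98 CPM (2.49, standard error 0.56, FDR 0.206 by edgeR). With anti–PD-1 it was higher in obese than nonobese tumors, by 2.92 (0.57), with an FDR of 0.0472 by edgeR. Ptx3, a long pentraxin of macrophages and vessels, was at 0.902 ± 0.590 CPM in nonobese isotype and 0.0755 ± 0.0685 in nonobese anti–PD-1 tumors (-3.40, standard error 0.86, FDR 0.833 by edgeR), with -0.13 (0.70) in obese mice. The metal-binding Mt1 and Mt2, the highest of the list, had log2 fold changes between -0.03 and 0.03 with anti–PD-1 in either diet.

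Genes of neutrophil granules were mostly too low to test: 16 of 20 had a count and 5 were tested. With anti–PD-1, 2 of the 5 were downregulated in nonobese mice (2.31% of all genes) and 2 were upregulated in obese mice (2.24% of all genes). Chi3l3, a chitinase-like protein of granules and macrophages (listed under an older symbol of Chil3), fell in nonobese mice with a log2 fold change of -1.62 (0.67, FDR 0.905 by edgeR) and rose in obese mice by 2.02 (0.72, FDR 0.486 by edgeR). Padi4, which converts arginine to citrulline in histones, fell in nonobese mice (-1.66, standard error 0.67, FDR 0.885 by edgeR) and was at -0.87 (0.67) in obese mice. Pglyrp1, which binds bacterial cell walls, rose in obese mice by 2.13 (0.70, FDR 0.438 by edgeR) and was at -0.50 (0.72) in nonobese mice. Mmp9, a protease, and Slpi, an inhibitor of proteases, were the highest of the 5. Mmp9 was at -1.47 (0.77) in nonobese and -0.28 (0.75) in obese mice, and Slpi at -0.19 (0.42) and 0.57 (0.48).

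Other receptors and membrane proteins of neutrophils, several of which macrophages and monocytes also carry, had a count for 17 of 18 genes, and 8 were tested. With anti–PD-1, 4 were downregulated in nonobese mice and none upregulated (2.31% of all genes were lower), and in obese mice 3 were upregulated and none downregulated (2.24% were higher). By DESeq2, 4 were lower in nonobese mice and 2 higher in obese mice. Their median log2 fold changes were -0.97 and 0.97. The difference between responses passed the fold and P thresholds for all 8 by edgeR, in the positive direction, where 4.93% of all genes did, and for 6 of the 8 by DESeq2. None of the 8 had an FDR below 0.05 for it by edgeR (lowest 0.118), and 2 did by DESeq2.

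Itgam and Itgb2, the subunits of the integrin Mac-1, were the highest of these. Itgam fell in nonobese mice (-1.20, standard error 0.47, FDR 0.872 by edgeR) and was at 0.91 (0.46) in obese mice. Itgb2 measured 18.9 ± 5.54 CPM in nonobese isotype, 11.6 ± 0.525 in nonobese anti–PD-1, 11.6 ± 3.59 in obese isotype and 22.7 ± 6.39 in obese anti–PD-1 tumors. Fcgr4, an activating Fc receptor, fell in nonobese mice (-1.10, standard error 0.41, FDR 0.859 by edgeR) and rose in obese mice from 4.35 ± 0.744 to 12.6 ± 6.05 CPM (1.54, standard error 0.41, FDR 0.279 by edgeR). With anti–PD-1 it was 2.29 (0.42) higher in obese than nonobese tumors, with an FDR of 0.0408 by edgeR. Clec4e, a receptor for microbial glycolipids, rose in obese mice by 2.03 (0.93, FDR 0.654 by edgeR). Il1r2, a decoy receptor for interleukin-1, and Clec5a, a lectin of myeloid cells, fell in nonobese mice, with log2 fold changes of -1.91 (0.73) and -1.43 (0.55) (FDR 0.867 for each by edgeR).

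**Figure D3:**
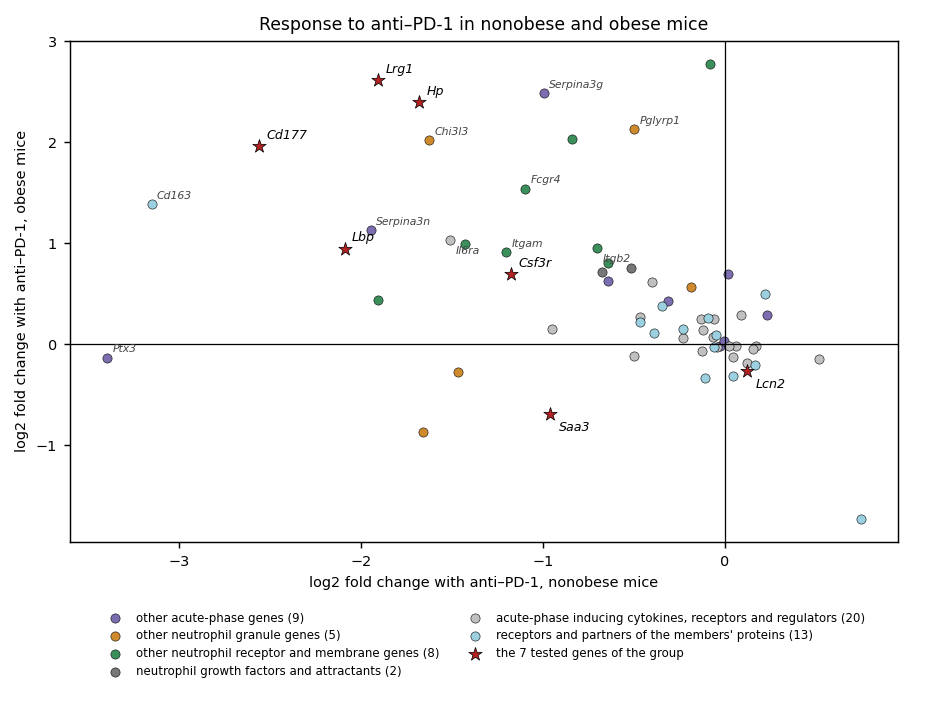
Log2 fold change with anti–PD-1 in nonobese mice (horizontal axis) against that in obese mice (vertical axis) for the 7 tested members (stars) and the tested genes of 6 lists around them (dots, number tested in brackets). Cd177, Lrg1, Hp, Lbp and Csf3r lie in the upper left with Serpina3n, Chi3l3, Fcgr4 and Itgb2, and the 20 tested genes of the inducing pathway have medians of -0.06 and 0.02.

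Of 27 cytokines, receptors and regulators that induce acute-phase genes all had a count and 20 were tested, of which 1 passed in each diet, beside 2.42% and 2.44% of all genes. The median log2 fold changes of the 20 were -0.06 in nonobese and 0.02 in obese mice. The cytokines Il6, Osm, Il11, Il1a and Tnf did not reach testing, and Il6 had at most 9 counts in a tumor. Il6ra, its receptor, was the gene that passed in each diet: it fell in nonobese mice by 1.51 on the log2 scale (0.44, FDR 0.833 by edgeR) and rose in obese mice by 1.04 (0.44, FDR 0.614 by edgeR). With the replicate number as a block, Il6ra did not pass in obese mice, at 0.97 (0.47). Stat3 and Jak1, which carry the signal of interleukin-6 and were the highest of the list, had log2 fold changes of 0.09 and -0.04 in nonobese and 0.29 and -0.03 in obese mice, and none passed. Cebpa, a regulator of myeloid genes, was at -0.95 (0.31) in nonobese and 0.15 (0.30) in obese mice.

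Neutrophil growth factors and attractants numbered 10, of which 9 had a count and 2 were tested. They were Csf1, a growth factor of macrophages, and Ppbp, a chemokine of platelets. Neither passed with anti–PD-1 in nonobese (-0.52 and -0.67) or obese mice (0.76 and 0.71). Csf3, the ligand of Csf3r, had at most 4 counts in a tumor. All 13 receptors and partners of the members' proteins were tested, with medians of -0.10 and 0.11. Cd163, the macrophage receptor for haptoglobin bound to hemoglobin, fell in nonobese mice from 6.38 ± 4.61 to 0.676 ± 0.527 CPM (-3.15, standard error 0.83, FDR 0.833 by edgeR) and was at 1.39 (0.77) in obese mice. Tlr4 and Pecam1, partners of Lbp and Cd177, were at 0.05 and -0.47 in nonobese and at -0.31 and 0.22 in obese mice, and none passed. Eng and Scarb1, the highest of these partners, were at -0.23 and -0.05 and at 0.16 and 0.09.

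Markers that define neutrophils were at or near 0. Of 10 listed, Ly6g was not matched to a gene of the table, Mpo had 0 counts in all tumors, and Cxcr1 had 1, Camp 2, Retnlg 3, Elane 4, Stfa2l1 6, Ltf 8 and Cxcr2 12 over all tumors. Mmp8 had 121 counts, more than the other 9 together, so the sum is mainly that of Mmp8. The summed level was 0.514 to 0.738 CPM in nonobese isotype, 0.134 to 0.356 in nonobese anti–PD-1, 0.239 to 0.589 in obese isotype and 0.730 to 1.83 in obese anti–PD-1 tumors. Markers of hepatocytes, the main source of acute-phase proteins, were also near 0, at no more than 0.738 CPM in sum, with Serpina1a at 0 and Alb at 2 counts in all.

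**Figure D4:**
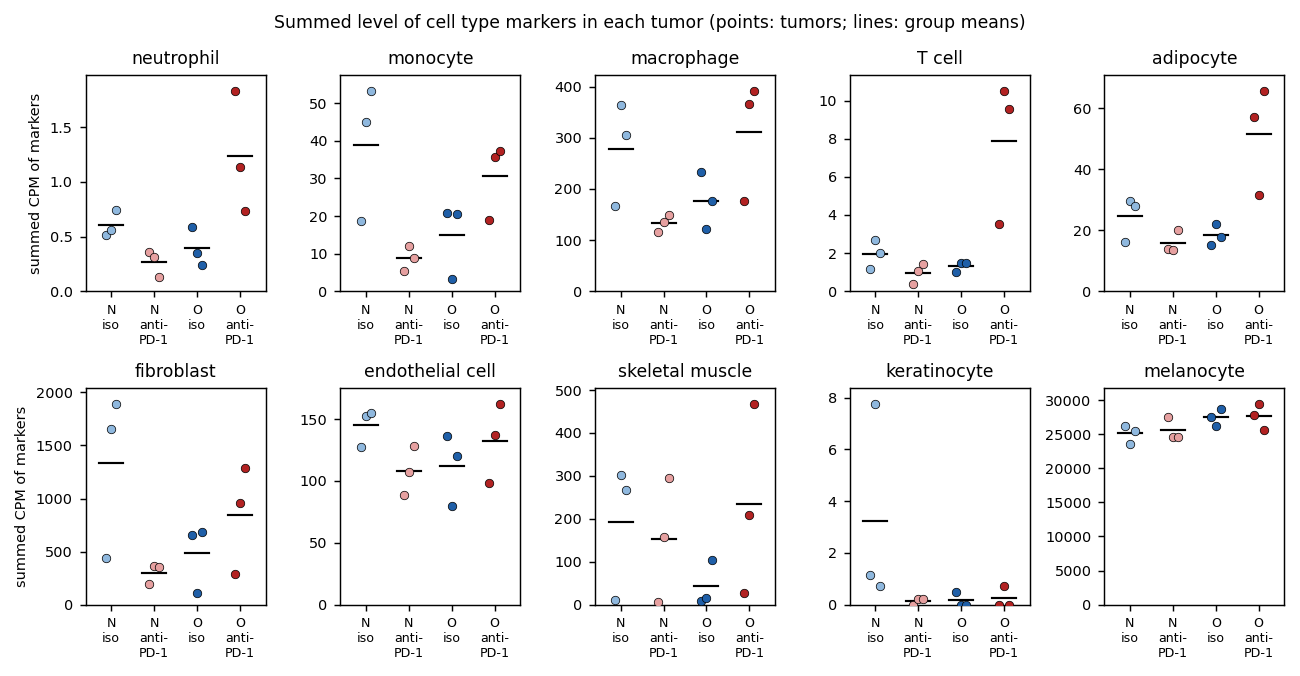
Summed CPM of the marker genes of 10 of the 11 cell types, without hepatocytes (vertical axes from 0) in each tumor, by group, with lines at the group means. All 10 sums are highest on average in nonobese isotype or obese anti–PD-1 tumors, and melanocyte sums vary little.

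Markers of several other cell types varied along with the members. Adipocyte markers summed to 16.2 to 29.6 CPM in nonobese isotype, 13.6 to 20.1 in nonobese anti–PD-1, 15.1 to 22.1 in obese isotype and 31.6 to 65.8 in obese anti–PD-1 tumors. All 6 had their highest group mean in the last. The sum was mainly that of Fabp4, with group means of 19.4, 14.7, 16.5 and 37.5 CPM in this order. Adipoq had group means of 1.74, 0.332, 0.521 and 4.24 CPM, and Cidec of 1.68, 0.336, 0.593 and 4.85. Monocyte markers summed to 18.7 to 53.3, 5.44 to 11.9, 3.22 to 20.8 and 18.8 to 37.2 CPM in the same order, and macrophage markers to 166 to 365, 116 to 149, 121 to 233 and 176 to 392. Fibroblast markers summed to 441 to 1892, 191 to 362, 108 to 687 and 287 to 1283 CPM. Endothelial markers summed to 127 to 155, 88.6 to 128, 80.0 to 136 and 98.3 to 162 CPM, with means of 145, 108, 112 and 133. Melanocyte markers summed to 23650 to 29470 CPM over all 12 tumors. T cell markers were at 3.52 to 10.5 CPM in obese anti–PD-1 tumors and at no more than 2.7 elsewhere. The part of these cell types in the levels of Lrg1, Hp, Lbp, Cd177 and Csf3r was not tested.

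Another pair of marker sums bore on single tumors. Skeletal muscle markers ran from 6.96 to 467.7 CPM and spread widely within each group, as from 28.1 to 467.7 in obese anti–PD-1 tumors. Keratinocyte markers were at 7.76 CPM in nonobese isotype replicate 2 and at no more than 1.16 in the other 11 tumors. That tumor had the highest Lrg1, Hp, Cd177 and Csf3r of its group.

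Among 11953 genes with a mean of at least 1 CPM, those whose log2 CPM was most like that of Lrg1 over the 12 tumors were Cfd (Pearson's r = 0.95), Plin4 (0.95), Lpl (0.94), Sqrdl (0.94) and Adipoq (0.93). Adipoq is one of the 6 adipocyte markers summed above. For Cd177 the 5 most alike, among 11954 genes, included Ucp2 (0.96), Entpd1 (0.96), Islr (0.96) and AF251705 (0.95). The 12 points share group differences, so likeness across them is a description. When group means were taken out first, 1 of the 5 genes stayed among the top 5 for Lrg1 (Plin4) and 1 for Cd177 (Ucp2). The 5 for Lrg1 were then Cmya5 (0.95) and Mybph (0.93), both of striated muscle, with Aida (0.94), C1qtnf3 (0.94) and Plin4 (0.93).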

How the data were processed

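RNA of 12 B16-F10 tumors, 3 per group, was sequenced from stranded mRNA libraries made from 180 ng of RNA. The authors aligned reads to mm10 with STAR 2.7.0f and counted them per gene with HTSeq 0.9.1, per the submitters' processing notes, and deposited the counts of 23420 genes unnormalized. The annotation release and the strand option of HTSeq are not given in the sources used here. No exon of the 10 genes overlapped another gene in GENCODE M21. All 12 columns were matched to tumors by library name, and no pair of tumors was alike enough to be 1 library (highest correlation of log2 CPM 0.991).

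Counts were filtered with filterByExpr in edgeR 4.0.16 (R 4.3.3), which kept 13095 genes. After TMM scaling they were fitted by a negative binomial model of 4 group means (8 residual degrees of freedom, common dispersion 0.0352, legacy form of glmQLFit). The quasi-likelihood F-test gave P values, with Benjamini-Hochberg FDR over all genes tested. CPM values used library size and TMM factor, and log2 CPM a prior count of 2. The sources name no separate cultures or litters, so P values measure the spread between these tumors. The code was tested on simulated data.

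The 10 genes and the gene lists were chosen with earlier results of these data known. The genes named were the 10, the list genes past a fold change of 2 and an unadjusted P of 0.05 in the comparison described (the 4 with the smallest P where more passed) with the 2 highest genes of each list, the 5 genes most like Lrg1 and Cd177, and markers that moved with a member. Crp, Apcs, Orm1, Saa1, Saa2, Il6, Csf3, Cebpa, Tlr4 and Pecam1 were named outside this rule, after their values were seen. For the diet comparisons, the difference between responses, and Lrg1 and Cd177 in either diet, calls at the thresholds are counted as a description and no P or FDR value of a single member is printed, since these values were known when the genes were chosen. Deviations from group means of same-numbered tumors correlated above 0.1 in all 3 pairs, among the 4 pairwise comparisons, only between the diets with anti–PD-1 (0.111 to 0.443). Nonobese isotype and obese anti–PD-1 tumors, which are not compared directly, also did so, at 0.563, 0.184 and 0.410. Any pairing by replicate number is therefore only a hint from the data and not from the labels. Of the genes this rule names, 2 are not reported here. Gene names were matched through RefSeq synonyms on GRCm38.p6. DESeq2 1.42.0, RLE scaling, other filters, the current glmQLFit, a replicate block, models of 6 tumors and leaving out each tumor were tried as alternatives.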

Additional observations from a re-analysis of the deposited data

Results flagged for a closer look

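For Hp, the response to anti–PD-1 differed between diets by 4.08 on the log2 scale. Every anti–PD-1 tumor lay below every isotype tumor in nonobese mice, by a narrow margin (12.3 against 12.7 CPM), and above every isotype tumor in obese mice. Of all genes tested, 5.37% were lower without overlap in nonobese mice and 5.45% higher in obese mice, and the share with both is not given. The difference between the responses of Hp passed the fold and P thresholds by edgeR, which is given as a description because the 10 genes were chosen with this contrast known. Chi3l3, of the granule list, showed the same arrangement of tumors, with a difference of 3.65. In nonobese mice its isotype and anti–PD-1 levels were 0.781 ± 0.259 and 0.245 ± 0.131 CPM, and the obese values were 0.185 ± 0.221 and 0.814 ± 0.204 (SD, n = 3). The low groups rest on few reads, with 2, 9 and 8 counts in nonobese anti–PD-1 and 3, 0 and 9 in obese isotype tumors. For Chi3l3, edgeR gave the difference an FDR of 0.149. For Itgb2, of the membrane list, the difference was 1.66, with an FDR of 0.121 by edgeR.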

How the results depend on the processing

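The counts of members past the thresholds depended on the thresholds and the filter. At an FDR below 0.05 by edgeR they were 0 with anti–PD-1 in nonobese and 0 in obese mice, 0 between diets with isotype, 1 (Hp) between diets with anti–PD-1 and 0 for the difference between responses. With at least 10 counts required in every tumor, which leaves only Lrg1, Saa3 and Hp to test, they were 2 in nonobese and 2 in obese mice. They were then 1 and 2 between diets with isotype and anti–PD-1, and 2 for the difference. With every gene of at least 1 count tested, they were 6 in nonobese mice, where S100a8 and S100a9 were added, 4 between diets with isotype, where Hp was added, and 7 between diets with anti–PD-1 and 7 for the difference, where S100a8, S100a9 and Csf3r were added. The shares of all genes that passed under these filters are not given, so nothing is read from these counts.

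Leaving out each tumor in turn gave 0 to 1 members for the response averaged over diets, 3 to 6 in nonobese and 2 to 3 in obese mice, 1 to 4 between diets with isotype, 3 to 6 with anti–PD-1 and 4 to 5 for the difference. The cause was not tested. The fold change of Lcn2 had no stable sign: over the tumors left out its range was -0.345 to 0.273 averaged over diets, -0.421 to 0.555 for nonobese and -0.729 to 0.431 for obese mice. Averaged over diets, Cd177 ranged between -0.564 and 0.0534 and Csf3r between -0.787 and 0.0344.

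Groups share replicate numbers, but deviations from group means correlated at 0.133 on average over 18 pairs of tumors with the same number, 10 of them over 0.1, and at -0.06 over 36 pairs with other numbers, and among the 4 pairwise comparisons all 3 pairs were over 0.1 only between diets with anti–PD-1. There the block raised the genes at an FDR below 0.05 by edgeR from 50 to 95. With the replicate block, 0 members passed averaged over diets, 4 in nonobese and 3 in obese mice, 3 and 5 between diets with isotype and anti–PD-1 and 5 for the difference. Between diets with isotype the block added Hp and lost Lbp, and with anti–PD-1 and for the difference it added Csf3r. Among the list genes, tried with the block after seeing the data, Il6ra no longer passed in obese mice (0.97), Mmp9 passed in nonobese mice and Il1r2 no longer passed between diets with anti–PD-1 (1.75). Averaged over diets, 2 granule genes and 0 membrane genes passed, against 1 of each without it. With the block Lcn2 averaged over diets was at 0.0484. Depth limits S100a8, S100a9, Ngp and Cd177, which had 3 counts or fewer in most tumors.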
